A study of Mus musculus with 8 samples.

Results

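The sarcomere and excitation-contraction genes described here encode the contractile and calcium-handling parts of a skeletal muscle fiber. They were chosen by name, as rows of the deposited table whose symbol was on a list of 51, and all 51 were found among its 18877 gene symbols. Myosin heavy chains were not on that list. By role, 14 members belong to the thin filament, 12 to the thick filament and the M-band, 12 to the Z-disc and costamere, 10 to calcium release and 3 to energy and oxygen supply. Of the 51, 45 had a mean of at least 10 normalized reads over the 8 libraries and were tested, and Tnnc1, Tnnc2, Myl2, Myoz2, Smpx and Ckmt2 were not.

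The libraries, 4 wild-type and 4 mfn2-/-, were made from activated muscle stem cells (ASCs), which are the stem cells of skeletal muscle once out of quiescence. All mice were given tamoxifen at 75 mg/kg once a day for 5 days, which turned on Pax7-CreERT2 and with it the mito-Dendra2 allele, a fluorescent mitochondrial label. In mfn2-/- mice the same Cre deleted a floxed Mfn2 allele, which encodes a fusion protein of the mitochondrial outer membrane. Tibialis anterior muscles were injured with 50 uL of 1.2% BaCl2, and live CD34-negative, Dendra2-positive cells were sorted 2 days after injury (2 dpi). The deletion depends on the Pax7 promoter, and any cell in which this Cre was active could carry the label. The mice were adults, and the number of animals behind each library is not given in the sources used here. The p-values below therefore measure the spread between libraries, which may be technical.

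A sarcomere is built from actin thin filaments that slide along myosin thick filaments, with the Z-disc anchoring the thin filaments and the M-band holding the thick ones together. Tropomyosin and the troponins sit on the thin filament and make contraction depend on calcium. A voltage sensor in the T-tubule opens the ryanodine receptor of the sarcoplasmic reticulum, and a calcium pump returns the calcium. Most of these genes are switched on as myoblasts differentiate and fuse, and many have fast, slow, cardiac or developmental partners, while desmin and several tropomyosins are also made in proliferating myoblasts and in other cells.

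Mfn2 itself stood at 243, 245, 202 and 228 normalized reads in the wild-type libraries and at 104, 118, 172 and 110.0 in the mfn2-/- libraries. The groups did not overlap, but the log2 change of -0.88 (SE 0.30) had an adjusted p of 0.0848 in limma and was not called. Pax7, the defining muscle stem cell factor, was between 582 and 803 normalized reads in every library. Of 10 tested muscle stem cell markers, Myod1, Vcam1 and Sdc4 were higher, beside 3.99% of all genes. Cd34, which the sort selected against, was lower, beside 6.36%. Of the 10, 6 had a log2 change above 0 and 4 below. Their sum was 11964 to 14969 normalized reads in wild-type and 24897 to 31853 in mfn2-/- libraries, with no overlap. The part of this difference in the results below was not tested. By contrast, 0 of 10 endothelial and 0 of 5 macrophage markers were called with limma, edgeR or DESeq2 (10.4%, 9.85% and 14.8% of all genes). None of these had an unadjusted p under 0.05. Libraries held 1880464 to 7508215 reads, and a single read counted for 0.534 to 2.27 normalized reads. With 13.5% of its signal from structural RNAs and 9646 genes with a read, mfn2-/- replicate 4 stood apart. Both groups held 2 libraries with reads from Y-linked genes (wild-type replicates 3 and 4, mfn2-/- replicates 1 and 2) and 2 with none, and the results are given within each kind where they differ. Markers of other cells also moved with genotype: 13 of 15 tested fibroadipogenic markers were lower in mfn2-/- ASCs (86.7%, beside 6.36% of all genes). Their sum was 203287 to 265019 normalized reads in wild-type libraries and 6163 to 11106 in mfn2-/- libraries. All 10 tenocyte markers were lower, as were 4 of 11 tested mural and smooth muscle markers, beside the same 6.36% of all genes. In contrast, 1 mural marker (Abcc9) was higher, beside 3.99% of all genes. The mural sum was 5095 to 5757 in wild-type and 2927 to 4456 in mfn2-/- libraries. In bulk RNA, fewer cells of a type and less RNA per cell cannot be told apart, and the part of these markers in the results below was not tested.

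Of the 45 tested members, 7 were called at an adjusted p under 0.05 with limma, a share of 15.6% beside 10.4% of all 11754 genes tested. Tpm2, Tpm3, Mylk2, Ttn, Myom1 and Des were higher in mfn2-/- ASCs (13.3% of the members, beside 3.99% of all genes), and Tpm1 was lower (all genes 6.36%). The median log2 change of the tested members was 0.72, and that of all genes tested was -0.16. Of the members, 34 were above 0 (75.6%, beside 44.2% of all genes) and 11 below. Tnnt1, Tnnt2, Tnni1, Myl3, Mybph, Myom2, Tcap, Cacng1 and Trdn averaged under 10 normalized reads in wild-type and passed the filter only through their mfn2-/- values. All of them had a log2 change above 0. Casq2 alone passed only through its wild-type values, and its log2 change was below 0. The filter thus favors changes above 0 in this list. With a filter at a mean of at least 50, 25 members were tested, and the medians were 0.50 and -0.015. Without mfn2-/- replicate 4 there were 5 calls, without wild-type replicate 4 there were 3, and Des, Mylk2 and Tpm1 were called with any 1 library left out. Changes are on the log2(value + 1) scale, on which a single library at 0 can move a weak gene either way: edgeR gave 1.97 for Tnnt3, against 2.86 here, and 3.62 for Mybph, against 3.08. Groups did not overlap for 10 members (22.2%), beside 19.5% of all genes, with 9 higher and 1 lower in mfn2-/- ASCs, beside 7.36% and 12.2% of all genes. The 9 include Mybph and Myom2, which passed the filter only through their mfn2-/- values. EdgeR called 7 members (9.85% of all genes), DESeq2 9 (14.8%), limma with library weights 12 (25.8%) and limma with no trend 2 (5.39%). In the plot of changes by role, the errors of the called members reach 0.61 (Mylk2). Several uncalled members lie far from 0 with errors over 1, such as Tnnt2 (2.32, SE 1.30). Others lie near 0 with small errors, such as Mybpc1 (-0.17, SE 0.23).

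**Figure D1:**
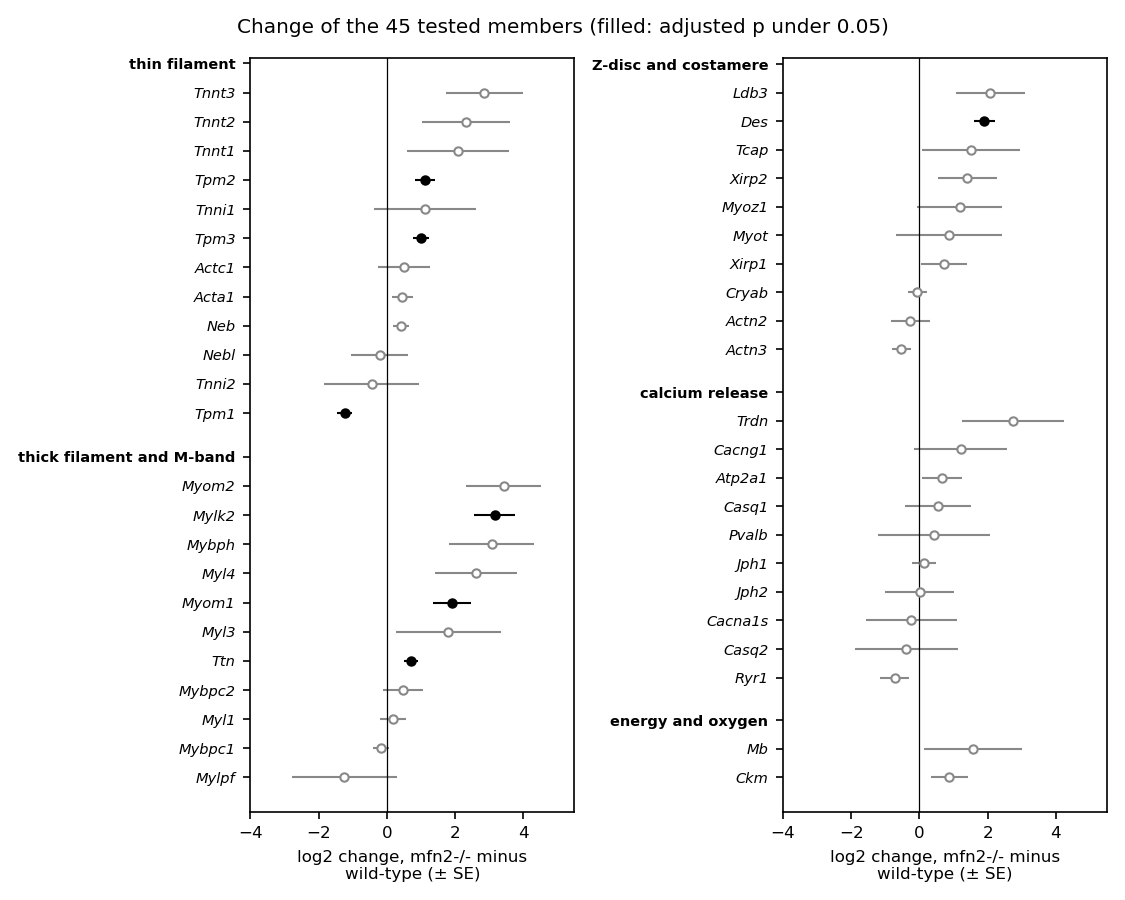
Log2 change (mfn2-/- minus wild-type, x axis) of each of the 45 tested members, grouped by role, with its standard error as a bar and filled points for members with an adjusted p under 0.05 in limma. The 7 filled points range from -1.24 (Tpm1) to 3.16 (Mylk2), and no calcium release or energy gene is filled.

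Promoters of 4 of the 6 members called higher are shown first, so that the letters searched for can be seen in place. The bases before a RefSeq transcription start (GRCm38.p6) are printed 5′ to 3′ on the gene's strand, up to the first base that lies in a GENCODE M21 exon. Capitals mark the E-box CANNTG, bound by MyoD and its relatives, and the MEF2 and CArG motifs, bound by MEF2 proteins and serum response factor, on either strand. CAGCTG, a form that MyoD favors, is also a CANNTG. Des, on the plus strand at chr1:75360042-75360291, holds CAGCTG at position -36 from the start. Ttn, on the minus strand at chr2:76982548-76982797, holds an E-box at -138 and a MEF2 motif at -166. Tpm3, on the plus strand at chr3:90072401-90072648 before its first start, holds CAGCTG at -175. Myom1, on the plus strand at chr17:71019307-71019520, before a start that lies inside the GENCODE gene, holds 3 E-boxes and a CArG motif at -99.
Des: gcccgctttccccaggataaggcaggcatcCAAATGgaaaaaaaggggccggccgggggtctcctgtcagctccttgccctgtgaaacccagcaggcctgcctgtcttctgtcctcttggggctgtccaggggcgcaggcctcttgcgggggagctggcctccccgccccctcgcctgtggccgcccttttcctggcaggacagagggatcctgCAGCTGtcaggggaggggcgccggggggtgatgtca
Ttn: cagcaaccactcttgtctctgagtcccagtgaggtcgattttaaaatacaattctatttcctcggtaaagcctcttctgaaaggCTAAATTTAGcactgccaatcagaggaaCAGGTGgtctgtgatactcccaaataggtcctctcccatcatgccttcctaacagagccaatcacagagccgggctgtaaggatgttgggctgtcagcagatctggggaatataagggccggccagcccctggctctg
Tpm3: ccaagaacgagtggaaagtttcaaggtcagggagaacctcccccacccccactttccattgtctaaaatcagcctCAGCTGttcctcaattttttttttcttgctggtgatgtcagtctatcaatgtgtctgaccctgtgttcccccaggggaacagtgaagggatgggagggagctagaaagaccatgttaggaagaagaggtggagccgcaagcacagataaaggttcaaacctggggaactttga
Myom1: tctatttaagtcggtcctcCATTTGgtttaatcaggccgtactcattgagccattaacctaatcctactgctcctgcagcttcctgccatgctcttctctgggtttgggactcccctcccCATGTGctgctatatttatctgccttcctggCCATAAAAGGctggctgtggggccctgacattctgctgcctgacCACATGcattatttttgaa

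RefSeq promoters were given for 37 of the 51 members, with 49 starts in all. Within the 250 bases before the start, CANNTG was found in 81.6% of these, beside 66.2% of all 32851 promoters. CAGCTG was found in 44.9%, beside 13% of all promoters. The M-CAT motif CATTCC, which TEAD factors bind, was in 20.4%, beside 12.6%. The MEF2 motif was in 6.12% beside 0.508%, and the CArG motif in 14.3% beside 1.47%. The letters were present in members that were called and in members that were not, and these shares are a description, with no test.

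Among thin filament genes, 3 of 12 tested members were called (25%, beside 10.4% of all genes). All were tropomyosins, the coiled coils that lie along actin. Tpm1 (chr9:67022590-67049406, GRCm38) fell while Tpm2 and Tpm3 rose. The Tpm1 level was 969, 735, 1295 and 1069.5 normalized reads in wild-type replicates 1 to 4 and 506, 380.0, 506 and 328 in mfn2-/- replicates 1 to 4. Every mfn2-/- library was below every wild-type library. The log2 change was -1.24 (SE 0.23, adjusted p 0.0044 in limma), the exact permutation p was 0.0286, the smallest that 4 against 4 allows, and the call was kept with each library left out in turn.

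Tpm2 (chr4:43514711-43523765, GRCm38), the beta-tropomyosin of slow and fast fibers, stood at 198, 162, 403 and 247 in wild-type and at 533, 431, 488 and 649 in mfn2-/- ASCs. The groups did not overlap, and wild-type replicate 3 came closest to the mfn2-/- range. The log2 change was 1.12 (SE 0.29, adjusted p 0.0269 in limma). Its adjusted p rose to between 0.0566 and 0.0690 when wild-type replicate 1, 2 or 4 or mfn2-/- replicate 1 or 3 was left out. Tpm3 (chr3:90072649-90100902, GRCm38), made as a slow muscle form and as cytoskeletal forms, stood at 1965, 2196, 1089 and 1082 in wild-type and at 3304, 2917, 2837 and 3079 in mfn2-/- ASCs. The wild-type libraries split into a higher and a lower pair, and all were below the mfn2-/- range. The log2 change was 1.01 (SE 0.24, adjusted p 0.0175 in limma), and without wild-type replicate 3 or 4 the adjusted p was 0.0627 or 0.0589. Of the Tpm3 50-base stretches, 23.2% also occur in transcripts of other genes, mainly Tpm3-rs7, so part of its reads could be assigned elsewhere.

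The tropomyosin reads had a different makeup in each group. Of the reads of Tpm1, Tpm2, Tpm3 and Tpm4 together, Tpm1 took 24.1% ± 6.62 (SD, n = 4) in wild-type and 7.91% ± 1.90 (SD, n = 4) in mfn2-/- ASCs. Tpm3 took 36.5% ± 11.3 and 55.7% ± 7.46 (SD, n = 4 each). The ratio of Tpm1 to Tpm3 reads was 0.493, 0.335, 1.19 and 0.989 in the wild-type libraries and 0.153, 0.130, 0.178 and 0.106 in the mfn2-/- libraries, with no overlap. Tpm4, a cytoskeletal form outside the list, had a log2 change of -0.01 (adjusted p 0.991 in limma). These ratios compare reads, not molecules, and the table does not separate muscle from cytoskeletal transcripts of a tropomyosin gene. Tpm1 and Tpm4 are also made by fibroblasts and smooth muscle, and the part of the lower fibroadipogenic and mural sums in the Tpm1 change was not tested.

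**Figure D2:**
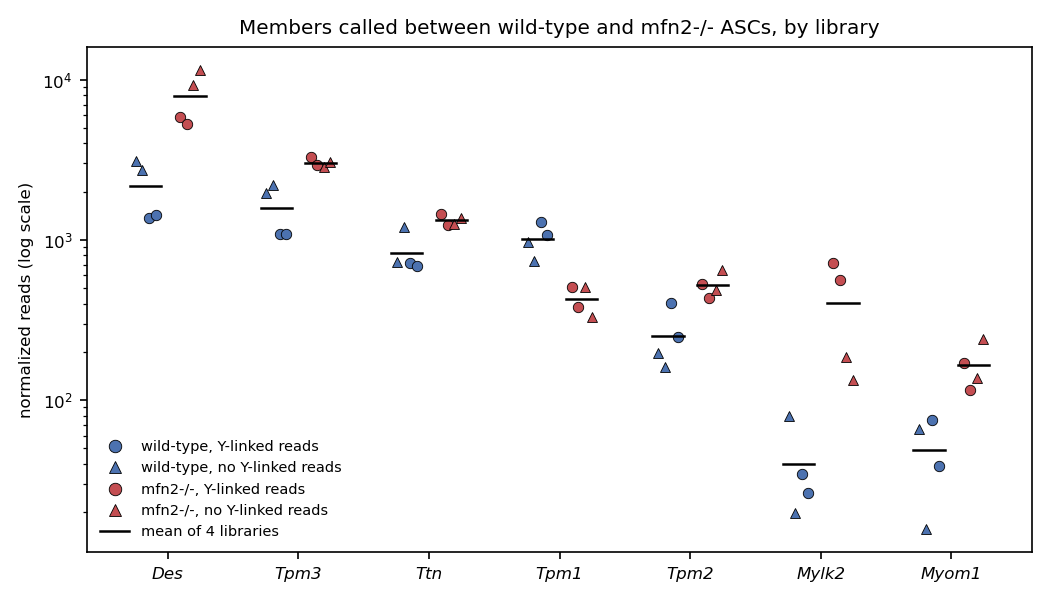
Normalized reads (y axis, log scale) of the 7 called members in each library, blue for wild-type and red for mfn2-/-, circles for libraries with Y-linked reads and triangles for those without, bars for the mean of 4. For each gene the 4 red points lie on one side of the 4 blue points, below them for Tpm1 and above them for the other 6.

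The actins did not pass the test. Acta1, the skeletal alpha-actin, stood at 532, 807, 1246 and 1031 in wild-type and at 886, 859.6, 1286 and 1966 in mfn2-/- ASCs. The ranges overlapped, and the log2 change was 0.45 (SE 0.30, adjusted p 0.395 in limma). Actc1, the actin of heart and developing muscle, stood at 18.2, 52.9, 312 and 177 in wild-type and at 72.01, 79.0, 162 and 244 in mfn2-/- ASCs. Its wild-type libraries spanned the whole mfn2-/- range, and the log2 change was 0.50 (SE 0.76, adjusted p 0.730 in limma). Of the Acta1 50-base stretches, 2.02% are shared, some with Actb.

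The troponins were weak in these cells and none was called in limma. Troponin T binds tropomyosin, and its fast form Tnnt3 was listed at 0 in wild-type replicate 1 and at 38.4, 56.3 and 43.3 in the other wild-type libraries, against 171, 141, 75.2 and 150.3 in mfn2-/- ASCs. The groups did not overlap, yet the log2 change of 2.86 (SE 1.12) had an adjusted p of 0.130 in limma. It was called with library weights (0.0354), quantile normalization (0.0322) and a pseudocount of 10 (0.0433). The slow form Tnnt1 averaged 6.22 ± 10.9 and 21.7 ± 14.7, and the cardiac and developmental form Tnnt2 averaged 7.32 ± 10.8 and 19.3 ± 11.9 (wild-type and mfn2-/- normalized reads, SD, n = 4 each). Per kilobase of exon, the fast form was above the slow form in both groups, at 21.8 against 2.82 in wild-type and 84.8 against 9.84 in mfn2-/- ASCs. The inhibitory subunits Tnni1 (slow) and Tnni2 (fast) averaged 6.76 ± 9.01 and 49.8 ± 30.2 in wild-type and 23.0 ± 35.0 and 90.3 ± 83.1 in mfn2-/- ASCs (SD, n = 4 each), with log2 changes of 1.11 and -0.44 (adjusted p 0.694 and 0.873 in limma). Tnni2 was listed at 0 in mfn2-/- replicate 4, and its log2 change was 1.23 without that library and 0.96 in edgeR. The calcium-binding subunits Tnnc1 and Tnnc2 averaged under the filter, with means of 1.74 and 4.29 in wild-type and 6.81 and 7.01 in mfn2-/- ASCs. Neb, the ruler of the thin filament, averaged 253 ± 43.1 and 335 ± 33.4 (SD, n = 4 each), with a log2 change of 0.42 (adjusted p 0.307 in limma, 0.0410 with library weights), and its relative Nebl had one of -0.21 (adjusted p 0.902).

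Among thick filament and M-band genes, 3 of 11 tested members were called (27.3%, beside 10.4% of all genes), all higher. The median log2 change, 1.81, was that of Myl3, a weak gene. Its SE was 1.54, and its adjusted p was 0.504 in limma. Myl3, Mybph and Myom2 averaged under 10 normalized reads in wild-type and passed the filter only through their mfn2-/- values. Mylk2 (chr2:152911352-152923068, GRCm38), the skeletal muscle kinase of the myosin regulatory light chain, stood at 79.6, 19.7, 34.3 and 26.2 in wild-type and at 721, 563, 185 and 134 in mfn2-/- ASCs. Its lowest mfn2-/- library was above its highest wild-type library. The mfn2-/- libraries with Y-linked reads were the higher pair. The ratio of group means was 10.03, and the log2 change was 3.16 (SE 0.61, adjusted p 0.0055 in limma, exact permutation p 0.0286). The call was kept with each library left out, with log2 changes of 2.76 to 3.57.

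Ttn (chr2:76703980-76982547, GRCm38) encodes titin, the spring that runs from the Z-disc to the M-band. It stood at 725, 1205, 719 and 686 in wild-type and at 1442, 1240.4, 1259 and 1363 in mfn2-/- ASCs. Wild-type replicate 2 came within a few percent of the lowest mfn2-/- library, and the other 3 were well below. The log2 change was 0.71 (SE 0.21, adjusted p 0.0462 in limma). Only without wild-type replicate 2 was the call kept. With any other library left out, the adjusted p was between 0.0655 (mfn2-/- replicate 4) and 0.132 (wild-type replicate 4), and it was 0.0557 with edgeR.

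Myom1 (chr17:71002633-71126856, GRCm38) encodes myomesin, which crosslinks thick filaments at the M-band. It stood at 66.0, 15.6, 75.1 and 39.0 in wild-type and at 171, 116, 136 and 240.1 in mfn2-/- ASCs. The groups did not overlap. The log2 change was 1.91 (SE 0.56, adjusted p 0.0468 in limma), and the call was kept only without wild-type replicate 1, with adjusted p values of 0.0544 (wild-type replicate 3) to 0.113 (mfn2-/- replicate 1) without any other. Its relative Myom2, named here after its values were seen, was listed at 0, 15.6, 13.9 and 7.48 in wild-type and at 167, 35.6, 81.8 and 55.0 in mfn2-/- ASCs. These groups did not overlap either. The log2 change of 3.43 (SE 1.10) had an adjusted p of 0.0661 in limma, 0.0467 in edgeR and 0.0020 in DESeq2.

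No other thick filament member was called in limma. Mybpc1, the slow myosin-binding protein C, was among the most abundant of them, at 648, 886, 566 and 589.8 in wild-type and 749, 700.0, 439.9 and 520.4 in mfn2-/- ASCs. These ranges overlapped, with a log2 change of -0.17 (SE 0.23, adjusted p 0.704 in limma). The fast form Mybpc2 had a log2 change of 0.48 (adjusted p 0.654). Mybph, a related protein of the thick filament that is also named after its values were seen, was listed at 0, 6.22, 4.90 and 8.55 in wild-type and at 17.3, 9.48, 56.7 and 187 in mfn2-/- ASCs. Its groups did not overlap, but the mfn2-/- libraries spread widely and the log2 change of 3.08 (SE 1.25) had an adjusted p of 0.142 in limma, 0.0723 in edgeR and 0.0060 in DESeq2. The light chains, small subunits of the myosin head and neck, showed no call in limma: Myl1 averaged 189 ± 65.1 and 224 ± 116, Mylpf 65.0 ± 60.9 and 28.3 ± 33.4, Myl4 22.4 ± 20.1 and 93.0 ± 72.7, and Myl3 6.69 ± 8.16 and 25.6 ± 25.4 (normalized reads, wild-type then mfn2-/-, SD, n = 4 each). Of the Myl1 50-base stretches, 11.7% are shared with Mylf-ps.

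At the Z-disc and costamere, 1 of 10 tested members was called (10%, beside 10.4% of all genes). Des (chr1:75360329-75368579, GRCm38) encodes desmin, the intermediate filament that ties Z-discs to each other and to the membrane. It stood at 3104, 2722, 1376 and 1423 in wild-type and at 5837, 5275, 9259 and 11504 in mfn2-/- ASCs. Every mfn2-/- library was above every wild-type library, and in both groups the pair without Y-linked reads was the higher one. The ratio of means was 3.70, and the log2 change was 1.91 (SE 0.32, adjusted p 0.0019 in limma, exact permutation p 0.0286). It was 1.99 in libraries with Y-linked reads and 1.83 in those without, and 1.71 to 2.11 with each library left out, called in all 8 fits. Per kilobase of exon Des rose from 574 to 2123 normalized reads and passed Acta1 (589 and 813) as the highest member. Desmin is also made in mural and smooth muscle cells. Their marker sum was lower in every mfn2-/- library than in every wild-type library. Of 11 tested mural markers, 4 were called lower and 1 higher in limma, beside 6.36% and 3.99% of all genes. The part of these cells in the Des change was not tested.

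The actinins and the chaperone of the Z-disc were not called in the main limma fit. Actn3, the actinin of fast fibers, stood at 252, 373, 561 and 457 in wild-type and at 229, 247, 303 and 330 in mfn2-/- ASCs. The ranges overlapped and the log2 change was -0.52 (SE 0.28, adjusted p 0.271 in limma). It was called lower with library weights (adjusted p 0.0025) and without the shallowest library of each group (0.0414). Actn2, its partner in all fibers and in heart, had a log2 change of -0.26 (adjusted p 0.817). Cryab, the small heat shock protein that protects desmin and titin, stood at 314, 234, 188 and 221 in wild-type and at 289, 242, 240.2 and 156 in mfn2-/- ASCs, and its log2 change of -0.06 (SE 0.29, adjusted p 0.927) was smaller than its error. The remaining tested members, Ldb3, Tcap, Xirp2, Myoz1, Myot and Xirp1, had log2 changes of 0.72 to 2.08 and adjusted p values of 0.220 to 0.778. Of their 48 values, 9 were at or under the floor of 3 reads, none of them for Xirp1.

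Among calcium release genes, none of 10 tested members was called with limma, edgeR or DESeq2, beside 10.4%, 9.85% and 14.8% of all genes. None of these members had an unadjusted p under 0.05 with limma. Their summed level was 605 to 1735 normalized reads in wild-type and 905 to 1253 in mfn2-/- ASCs, a ratio of means of 0.979. Atp2a1, the fast fiber calcium pump SERCA1, stood at 111, 108, 879 and 623 in wild-type and at 333, 448, 486 and 569.9 in mfn2-/- ASCs. Its wild-type libraries fell on both sides of the mfn2-/- range, the pair with Y-linked reads above it and the pair without below. The log2 change was 0.66 (SE 0.59, adjusted p 0.526 in limma).

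Ryr1, the calcium release channel, stood at 348, 254, 555 and 588 in wild-type and at 429, 403, 203 and 108 in mfn2-/- ASCs. The ranges overlapped, and the log2 change was -0.73 (SE 0.43, adjusted p 0.321 in limma). Jph1, which holds the T-tubule to the sarcoplasmic reticulum, stood at 127, 171, 160.1 and 151 in wild-type and at 271, 159.6, 183 and 99.0 in mfn2-/- ASCs, with a log2 change of 0.14 (SE 0.36, adjusted p 0.838). Its partner Jph2 had a log2 change of 0.01 (adjusted p 0.997). The voltage sensor subunits Cacna1s and Cacng1 had log2 changes of -0.23 and 1.21, and the calcium-binding Casq1, Casq2 and Pvalb of 0.55, -0.38 and 0.43. Cacna1s was listed at 0 in mfn2-/- replicate 4, and its log2 change was 1.29 without that library and 0.96 in edgeR. Trdn, which anchors calsequestrin to the channel, was listed at 0 in 3 of 4 wild-type libraries and 1 mfn2-/- library, and its log2 change of 2.74 (SE 1.49) had an adjusted p of 0.280 in limma. It was called higher with library weights (0.0012) and without the shallowest library of each group (0.0268).

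In the energy and oxygen group, neither tested member was called with limma, edgeR or DESeq2 (10.4%, 9.85% and 14.8% of all genes). Neither had an unadjusted p under 0.05. Ckm, the cytosolic muscle creatine kinase, stood at 159, 32.1, 113 and 153 in wild-type and at 99.3, 186, 164 and 341 in mfn2-/- ASCs, with a log2 change of 0.88 (SE 0.54, adjusted p 0.347 in limma). Mb, the oxygen store myoglobin, stood at 0, 7.26, 38.4 and 29.4 in wild-type and at 64.7, 90.1, 45.7 and 1.83 in mfn2-/- ASCs. Its mfn2-/- replicates 1 to 3 were above the wild-type range and replicate 4 was near the bottom, and the log2 change was 1.58 (SE 1.44, adjusted p 0.538 in limma). Ckmt2, the mitochondrial creatine kinase, was not tested, with means of 11.3 and 2.49.

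Summed over all 51 members, wild-type libraries held 9959 to 11132 normalized reads and mfn2-/- libraries 16164 to 23806, or 0.248% to 0.270% and 0.400% to 0.573% of the total. The ratio of means was 1.82. Des made up much of the difference: without it the sums were 7528 to 9570 and 10681 to 12302, a ratio of 1.35. Without Des and Tpm3, the ranges overlapped, at 5563 to 8480 and 7844 to 9223, a ratio of 1.22. Both genes taken out were called higher, and they were chosen after the data were seen. Tpm1, the 1 member called lower, was kept in (735 to 1295 in wild-type and 328 to 506 in mfn2-/- libraries). The overlap therefore depends on which members were left out, and does not show that the remaining members were alike in both groups. Long and abundant transcripts weigh most in such sums.

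**Figure D3:**
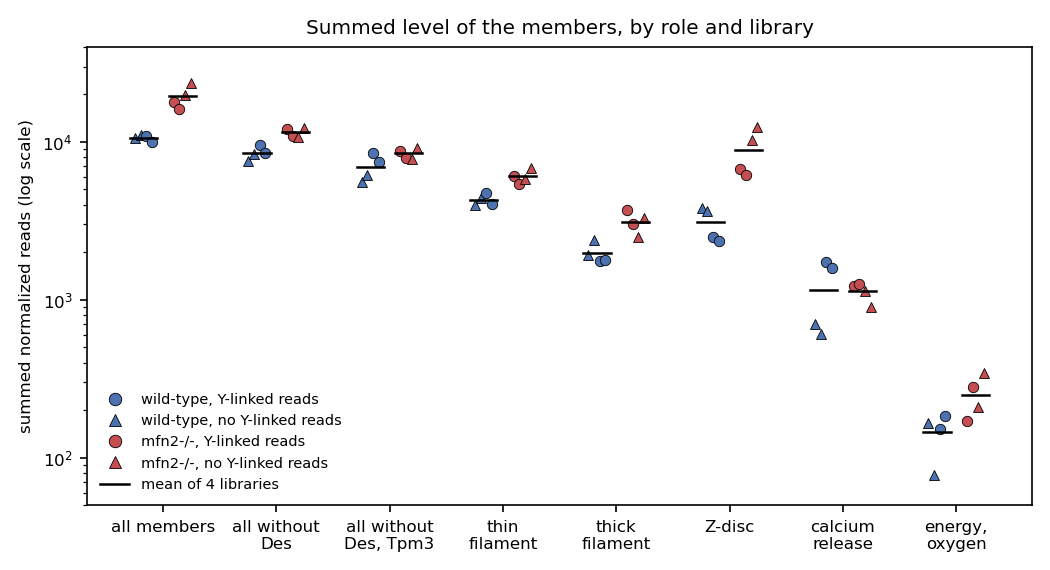
Summed normalized reads (y axis, log scale) of all 51 members, of the members without Des or without Des and Tpm3, and of each role, by library, with blue for wild-type, red for mfn2-/-, circles and triangles for libraries with and without Y-linked reads, and bars for the mean of 4. The groups are apart for all members (9959 to 11132 against 16164 to 23806). They overlap without Des and Tpm3, both called higher, in a sum that still holds Tpm1, which was called lower. For calcium release the 4 wild-type points lie on both sides of the mfn2-/- points.

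The change was also compared between the kinds of library. The median log2 change of the 45 members was 0.37 between the 2 and 2 libraries with Y-linked reads and 1.28 between those without, beside -0.16 for all genes in both kinds. Of the members, 16 (35.6%) had changes of opposite sign, a share close to the 36.2% of all genes. A fit with an interaction term, added after the data were seen, called 2 of the 45 members, Atp2a1 and Tpm3, beside 1.47% of all genes. For Atp2a1 the log2 change was -0.94 with Y-linked reads and 2.25 without (adjusted p of the difference 0.0045 in limma). For Tpm3 it was 1.51 and 0.51, higher in both (adjusted p of the difference 0.0398). Actc1 changed by -1.63 and 2.64 and Acta1 by -0.38 and 1.28, and the adjusted p of these differences was 0.0536 and 0.0602.

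Other members with opposite changes of over 1 in each kind were weaker. Tnni1, Cacng1 and Jph2 had log2 changes of -1.99, -1.19 and -1.47 with Y-linked reads and 4.21, 3.60 and 1.48 without. Tnni2 and Cacna1s went the other way, at 1.19 and 1.53 with Y-linked reads and -2.08 and about -2 without. Of the untested members, Myl2 changed by 2.15 and -1.37 and Ckmt2 by 2.56 and -4.13. The interaction was not called for the 5 tested ones (adjusted p 0.337 to 0.607 in limma). Myog, the myogenic factor of differentiation, was 134, 159, 558 and 584 normalized reads in wild-type and 68.7, 97.97, 141 and 161 in mfn2-/- ASCs. The wild-type pair high for Atp2a1 and Actc1, replicates 3 and 4, was also high for Myog. This pair was also higher in the summed fibroadipogenic, tenocyte (65595 and 62547, against 40809 and 41902) and mature fiber markers (1143 and 1006, against 487 and 442). It was lower in the summed muscle stem cell markers (11996 and 11964, against 14969 and 14946). The labels give no batch, and what sets the 2 kinds of library apart was not tested.

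**Figure D4:**
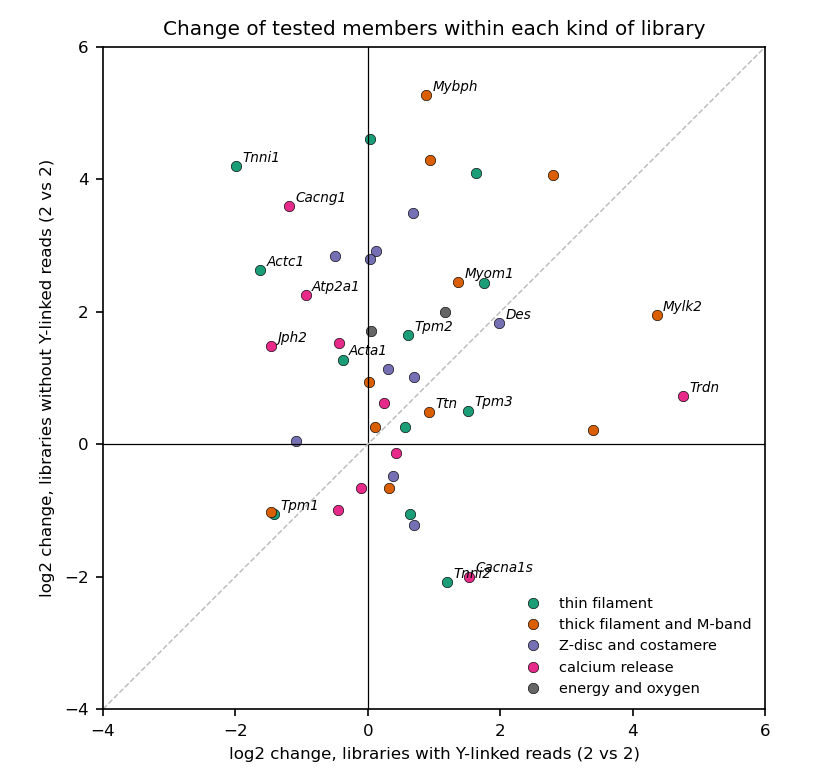
Log2 change (mfn2-/- minus wild-type) of the 45 tested members among libraries with Y-linked reads (x axis) and without (y axis), 2 against 2 in each, colored by role, with a dashed line of equal change. Des lies near the line (1.99 and 1.83), Atp2a1, Actc1 and Acta1 lie at the upper left, and 16 members lie where the signs are opposite.

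**Figure D5:**
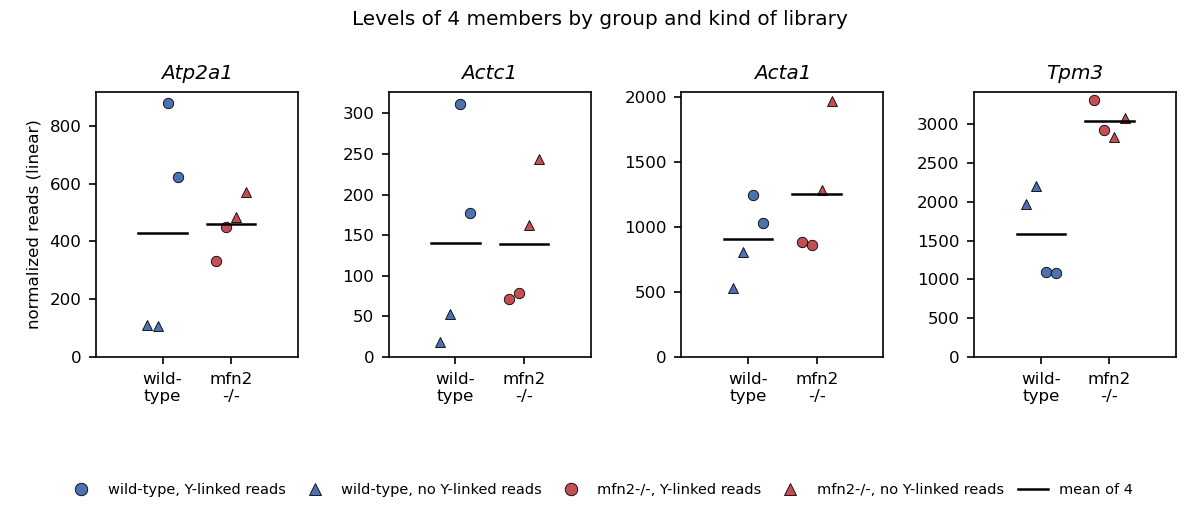
Normalized reads (y axis, linear, from 0) of Atp2a1, Actc1, Acta1 and Tpm3 in each library, blue for wild-type, red for mfn2-/-, circles with and triangles without Y-linked reads, bars for the mean of 4. For Atp2a1 the wild-type circles (879 and 623) are above and the wild-type triangles (111 and 108) below all mfn2-/- points, and for Tpm3 all mfn2-/- points are above the wild-type ones.

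Further genes of the pathway, on a list of 104 of which 97 were in the table and 71 were tested, gave 10 calls (14.1%, beside 10.4% of all genes) and a median log2 change of 0.05. Of sarcomere genes, 7 of 38 were called (18.4%). Synpo2, an actin-binding Z-disc protein, rose by a log2 change of 1.67 (adjusted p 0.0046), Speg, a kinase of the triad and M-band, by 1.46 (0.0320), Cfl2, the muscle cofilin, by 1.12 (0.0364), and Hspb1, a small heat shock protein, by 1.13 (0.0139, all limma). The change of Hspb1 was 1.80 with Y-linked reads and 0.47 without (adjusted p of the difference 0.0099 in limma). Trim63, the ubiquitin ligase MuRF1, was listed at 0 in all wild-type libraries and at 7.33, 8.69, 18.4 and 143 in mfn2-/- ASCs, at least 12.7-fold higher against a floor of 3 reads per library. Without mfn2-/- replicate 4 that bound was 3.28-fold. Trim63 passed the filter only through its mfn2-/- values, and its call was lost in 7 of the fits with 1 library left out. Lmod2, which lengthens thin filaments, and Obsl1, a cytoskeletal linker, were lower (log2 changes -1.35 and -2.18, adjusted p 0.0254 and 0.0474 in limma). The Speg ranges overlapped by 1 library in each group.

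Of 26 tested genes of excitation-contraction coupling outside the list, 2 were called lower, beside 6.36% of all genes. These were Cacna2d1, an auxiliary subunit of the calcium channel, and Asph, whose gene also encodes junctin (log2 changes -0.72 and -0.90, adjusted p 0.0332 and 0.0088 in limma). None of 7 tested genes of muscle metabolism was called by limma, edgeR or DESeq2 (10.4%, 9.85% and 14.8% of all genes), and 2 had an unadjusted p under 0.05. Other markers of mature fibers gave 2 calls of 8 tested (25%, beside 10.4% of all genes), the adult myosin heavy chains Myh1 and Myh4, both higher. Of these 8 markers, 4 had a log2 change above 0 and 4 below, with a median of 0.33. Of the cardiomyocyte markers, 4 were in the table and none reached the filter, with a summed level of 0 to 18.7 normalized reads per library.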

How the data were processed

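The authors sequenced stranded libraries that a low-input kit made from the total RNA of sorted ASCs. The submitters' processing notes name Trim Galore, HISAT2, featureCounts, DESeq2 and the mm9 build, and versions, strand setting and treatment of multi-mapping reads are not given in the sources used here. The deposited signal is normalized read counts for 18877 gene symbols, 1 column per library, with groups and replicate numbers from the labels' titles. All values (100%) were whole multiples of what 1 read is worth in that library (tolerance 0.01), so whole reads were recovered for depth and for count-based alternatives. The libraries with fewest reads, wild-type replicate 1 and mfn2-/- replicate 4, give the least precise values, and without molecular identifiers reads are not independent molecules.

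The main test was limma 3.58.1 (R 4.3.3) on log2(value + 1) for genes averaging at least 10. It used an intensity trend and no covariate, was two-sided, and p-values of all 11754 genes were adjusted by Benjamini-Hochberg, with calls at 0.05. Single values were compared over the 70 arrangements of 4 against 4. The members and lists were chosen with earlier results of these data known, so no p was adjusted over a list and no set was tested. Values in every library were given for called members and the 3 most abundant of each role, and called genes of the wider pathway and members with opposite changes of over 1 between kinds of library were named, except for 1 called gene of the wider pathway that is not reported here. Isoform partners were set side by side.

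Alternatives tried were a pseudocount of 0.1 or 10, no filter or a mean of at least 50, 4 other scalings, a replicate block, a term for Y-linked reads, no trend, library weights, libraries left out, edgeR 4.0.16 and DESeq2 1.42.0 on recovered reads, an adjusted p under 0.01 and a log2 change over 1. The interaction term and the sums without Des and Tpm3 were added after the data were seen. Gene coordinates, exon lengths and shared 50-base stretches came from GENCODE M21 (GRCm38), and promoters from RefSeq. Fits were tested on simulated data. Tables and figures were made with Python 3.11.15.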

Additional observations from a re-analysis of the deposited data

Results flagged for a closer look

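In groups of 4 libraries, 48 sets of values of named members were checked for a library far from the other 3, and 3 were found, where chance alone gives about 1 in 20. These were Ttn in wild-type replicate 2 (1205 normalized reads, the highest), Tnni1 in mfn2-/- replicate 4 (75.1, the highest) and Myl2 in wild-type replicate 2 (15.6, with the other 3 at 0).

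The change with genotype differed between libraries with and without Y-linked reads for 2 members in a test of the difference itself. The log2 change of Tpm3 was larger by 1.01 with Y-linked reads (adjusted p 0.0398 in limma), and that of Atp2a1 was lower by a difference of -3.19 (adjusted p 0.0045 in limma). For 4 more members, both mfn2-/- libraries of one kind lay on one side of both wild-type libraries and those of the other kind on the opposite side. Their log2 changes with and without Y-linked reads were -0.38 and 1.28 for Acta1, 0.32 and -0.66 for Mybpc1, -1.63 and 2.64 for Actc1, and 2.56 and -4.13 for Ckmt2. For Acta1, Mybpc1 and Actc1 the difference was not called (adjusted p 0.0602, 0.237 and 0.0536 in limma), and for Ckmt2, which was under the filter, the difference was not tested.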

How the results depend on the processing

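The number of members called was 7 (6 higher, 1 lower). It was 2 with no trend (2 higher, 0 lower), 12 with library weights (10 higher, 2 lower) and 3 at an adjusted p under 0.01 (2 higher), and 2 were lower without the shallowest library of each group. With 1 library left out it ran from 3 to 5 (2 to 4 higher, 1 lower). Des and Mylk2 were called under every alternative fit, and Tpm1 under all but no trend (adjusted p 0.0572). Of the wider pathway, 10 genes were called (6 higher, 4 lower), against 5 with no filter (3 and 2), 2 with no trend (2 and 0), 24 with library weights (15 and 9) and 2 at an adjusted p under 0.01 (1 and 1), with 2 lower with edgeR and 2 with a log2 change over 1. With 1 library left out these ran from 2 to 8 (1 to 4 higher, 1 to 5 lower). Over all genes, edgeR called 1158, DESeq2 1738, library weights 3037 and no trend 633. The cause of these shifts was not tested.

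The replicate numbers did not pair the libraries (correlations of deviations -0.03, -0.05, 0.04 and -0.11 for numbers 1 to 4). With the replicate number as a block, 5 members were called (Des, Mylk2, Tpm1, Tpm2 and Tpm3) and 6 genes of the wider pathway (2 lower), and 1043 genes in all against 1217.

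Among the named members, only uncalled ones turned direction. With library weights, which ran from 0.167 (mfn2-/- replicate 4) to 3.75 (mfn2-/- replicate 2), the log2 change was -0.14 for Acta1, -0.91 for Actc1, -0.31 for Atp2a1, 1.54 for Cacna1s, -0.93 for Cacng1, 0.22 for Cryab, -0.59 for Jph2, 0.11 for Mybpc1, -0.50 for Tnni1 and 0.94 for Tnni2. Without the shallowest library of each group it was -0.027 for Acta1, -0.55 for Actc1, 1.60 for Cacna1s, 0.26 for Cryab, -0.47 for Jph2 and 0.83 for Tnni2. Quantile normalization, which shifted the median of all genes by 0.29, gave 1.42 for Cacna1s, 0.014 for Cryab and 0.66 for Tnni2. EdgeR, which shifted that median by 0.11, and DESeq2 gave -0.0196 and -0.0208 for Actc1, 0.96 and 0.83 for Cacna1s, and 0.96 and 0.85 for Tnni2, and edgeR gave 0.053 for Cryab. A pseudocount of 10 gave 0.31 for Cacna1s and 0.19 for Tnni2, and one of 0.1 gave -0.014 for Jph2. With 1 library left out, the ranges that crossed 0 were -0.22 to 1.12 for Actc1, -0.84 to 1.29 for Cacna1s, -0.17 to 0.12 for Cryab, -0.086 to 0.40 for Jph1, -0.50 to 0.71 for Jph2 and -1.26 to 1.23 for Tnni2. Depth limits the weak members most: 21 of the 45 tested members had a library at or under 3 reads, and 17 members were listed at 0 in wild-type replicate 1 and 15 in mfn2-/- replicate 4.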
